A study of Bos taurus with 2 samples.

Results

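The genes described here are 9 components of the Hippo-YAP pathway, chosen by name in the feature list: the coactivator genes YAP1 and WWTR1, the transcription factor genes TEAD1 and TEAD4, the transcriptional targets CTGF, CYR61, ANKRD1 and AMOTL2, and the kinase gene LATS2. They are 9 of the 21867 genes in the list, and all 9 had UMIs. They were measured by single-cell RNA sequencing in satellite cells, the myogenic progenitors of postnatal muscle, taken from the skeletal muscle of 1 male Holstein calf aged 2 weeks and grown for a week in DMEM with 10% FBS before analysis. A pair of libraries, called replicates 1 and 2, was made from the same cells with a 10x Genomics 3′ kit, which tags each captured mRNA molecule with a unique molecular identifier (UMI), so there is 1 group with 2 replicates. The p-values below therefore set differences between clusters against the spread between library preparations, and they say nothing about other calves.

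Hippo signaling is a kinase cascade that ends in phosphorylation of the coactivators YAP (YAP1) and TAZ (WWTR1) by the LATS kinases, which keeps them out of the nucleus. When they are not phosphorylated, YAP and TAZ bind TEAD transcription factors on DNA and turn on genes such as CTGF and CYR61. In the satellite cell lineage, YAP is known for promoting proliferation, TAZ for also promoting later differentiation, and TEAD4 as a target of MYOD1. The mRNA levels measured here do not show phosphorylation or location of a protein.

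The 9939 cells of replicate 1 held 145631299 UMIs and the 9157 cells of replicate 2 held 137818568 UMIs. The authors divided the 19096 cells into 15 clusters and named 9 of them. Clusters 8 and 5 were called PAX3-positive satellite cells, cluster 4 PAX7-positive satellite cells, cluster 1 MYF5-positive and cluster 2 MYOD1-positive myoblasts, clusters 3 and 12 MYOG-positive myocytes, and clusters 9 and 7 fibro-adipogenic progenitors (FAPs). Levels are given as UMIs per 10000 UMIs of a cluster in each library. MYOG was at 18.6 in cluster 12 and 6.68 in cluster 3, and PDGFRA was at 1.58 in cluster 9 and 1.48 in cluster 7, whereas the names of clusters 4, 5 and 8 rest on 176 UMIs of PAX7 and 316 UMIs of PAX3 in all cells. Cluster 7 also had MYH3 at 4.74, DES at 5.54 and MYOG at 1.75, which goes against a purely fibro-adipogenic name, so it is called by its number here. The summed level of 3 FAP markers was 15.3 in cluster 8 and 11.1 in cluster 9, so the satellite cell name of cluster 8 is given only as the authors' name. Endothelial, glial and leukocyte markers were nearly absent, with 45 UMIs of PECAM1, 28 of CDH5, 1 of PTPRC and 0 of SOX10 and FOXD3 in all cells. Clusters 7, 13, 14 and 15 were shallow, with medians of 1389, 1631, 2513.5 and 647 UMIs per cell, against 5398.5 in cluster 10 and 12929 to 23011 in the others, and 27 cell barcodes occurred in both libraries.

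**Figure D1:**
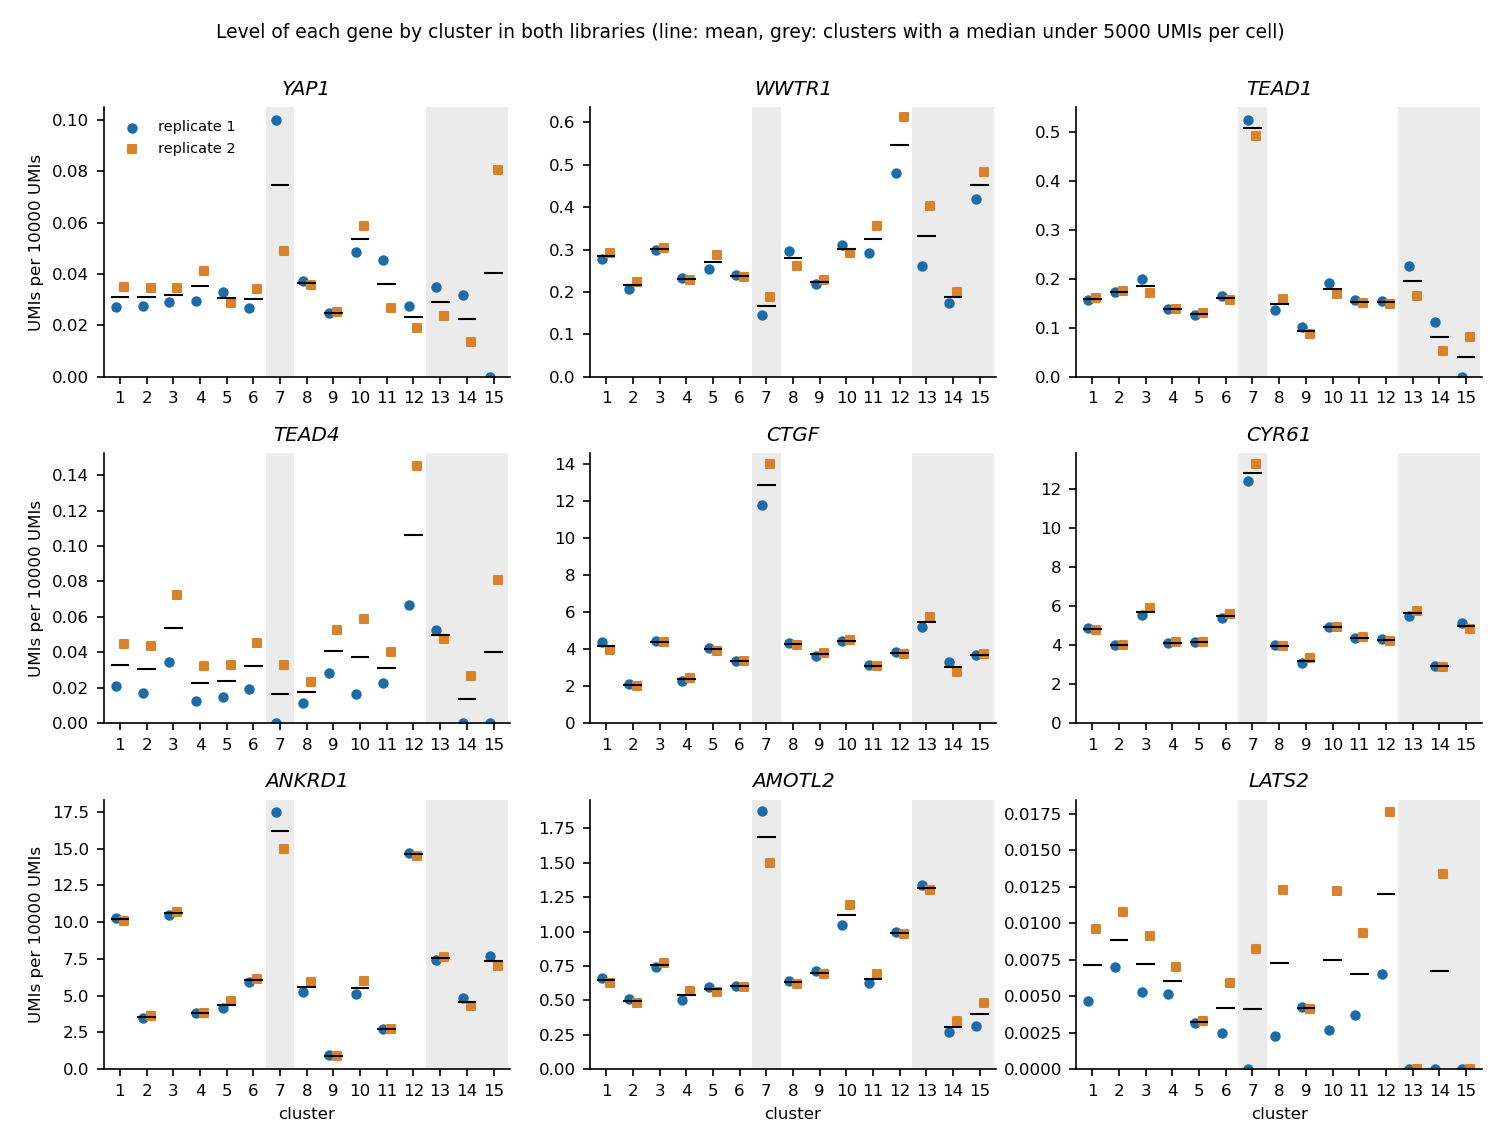
Level of each of the 9 genes (vertical axis, UMIs per 10000 UMIs of the cluster) in the 15 clusters (horizontal axis), with a circle for replicate 1, a square for replicate 2 and a line for their mean. The grey bands are the shallow clusters 7, 13, 14 and 15. CTGF and CYR61 stand highest in cluster 7, ANKRD1 is lowest in cluster 9, and TEAD4 is higher in replicate 2 in 14 of 15 clusters.

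Of the coactivator mRNAs, WWTR1 was seen in 30.3% of the cells with 7685 UMIs, and YAP1 in 4.64% of the cells with 913 UMIs. WWTR1 was highest in the myocytes of cluster 12, at 0.480 in replicate 1 and 0.612 in replicate 2. In the other 10 clusters with a median of 5000 UMIs or more per cell, its mean level ran from 0.216 in cluster 2 to 0.324 in cluster 11. Both libraries of cluster 12 thus lay above both libraries of each of these clusters, although the next cluster in the order over all clusters, the shallow cluster 15 at 0.452 ± 0.0453 (SD, n = 2) from 10 UMIs, overlapped with it.

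YAP1 ran from 0.0234 ± 0.00599 in cluster 12 to 0.0537 ± 0.00713 in cluster 10 among the 11 deeper clusters (SD, n = 2). Cluster 10, at 0.0486 and 0.0587 from 18 and 24 UMIs, lay above both libraries of each other deeper cluster. The closest library was at 0.0457 from 37 UMIs, in replicate 1 of cluster 11. Cluster 10 was singled out as the highest and was the shallowest of the deeper clusters, at a median of 5398.5 UMIs per cell. Its difference in YAP1 from the others was not tested. In the order over all 15 clusters, which takes in the shallow ones, all 14 pairs of neighbours overlapped between libraries. Cluster 7 had the highest mean, at 0.100 in replicate 1 and 0.0492 in replicate 2, but it rested on 15 UMIs. At this depth a difference in YAP1 was not detectable in any of the 7 comparisons described below, none of which includes cluster 10.

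The TEAD factors bind DNA for YAP and TAZ. TEAD1 was detected in 19.3% of the cells, with 4394 UMIs. Its level was 0.524 in replicate 1 and 0.492 in replicate 2 of cluster 7, from 107 UMIs, and both values were far above the 0.196 of the next cluster, cluster 13. Among the deeper clusters TEAD1 ran from 0.0939 ± 0.0097 in the FAPs of cluster 9 to 0.186 ± 0.0198 in the myocytes of cluster 3 (SD, n = 2). Cluster 9 lay below both libraries of each other deeper cluster, of which cluster 5 was the closest at 0.128, and it overlapped with the shallow cluster 14.

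TEAD4 was the member on which the libraries differed most. It had 325 UMIs in replicate 1 and 679 in replicate 2, which is a level of 0.0223 against 0.0493, or 2.21-fold. Only 0.626% of the 10062 genes with at least 500 UMIs differed as much between the libraries. In both libraries TEAD4 was highest in cluster 12 among the deeper clusters, at 0.0667 in replicate 1 and 0.145 in replicate 2. Cluster 3 came next at 0.0343 and 0.0724, and cluster 8 was lowest at 0.0113 and 0.0233. The order of clusters 12, 3 and 8 was the same in each library, yet neighbours overlapped in all 14 pairs of the order with replicate 2 higher in 14 of the 15 clusters. What set TEAD4 apart between the libraries was not tested.

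**Figure D2:**
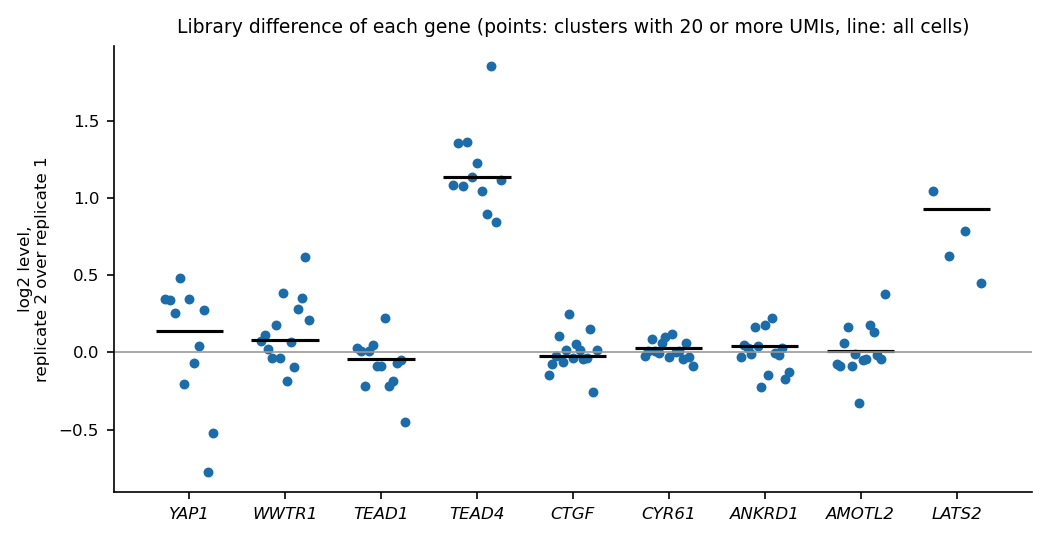
Log2 ratio of the level in replicate 2 to that in replicate 1 (vertical axis) for each of the 9 genes (horizontal axis). Each point is a cluster with 20 or more UMIs of the gene, and the line is the value over all cells, which is 1.14 for TEAD4, 0.93 for LATS2 with 182 UMIs, and between -0.04 and 0.14 for the other genes.

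Of the targets, CTGF and CYR61 encode secreted matricellular proteins (also called CCN2 and CCN1), and both are widely used as readouts of YAP activity. CTGF was found in 84.5% and CYR61 in 90.8% of the cells, with 100280 and 128778 UMIs. CTGF was lowest in clusters 2 and 4, the MYOD1-positive myoblasts and PAX7-positive cells that the authors described as rich in cell cycle genes. Its level was 2.12 and 2.01 in replicates 1 and 2 of cluster 2, and 2.28 and 2.45 in cluster 4. These clusters lay apart from one another and from every other cluster, since the third lowest, cluster 14, had 3.28 and 2.75. In the other deeper clusters CTGF ran from 3.11 ± 0.0641 in cluster 11 to 4.45 ± 0.036 in cluster 10 (SD, n = 2).

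CYR61 varied less, from 3.18 ± 0.185 in cluster 9 to 5.70 ± 0.253 in cluster 3 among the deeper clusters (SD, n = 2). Clusters 2 and 4, where CTGF was lowest, had CYR61 at 3.99 and 4.12, next to 3.97 in cluster 8 and 4.13 in cluster 5. Clusters 2 and 4 thus stood apart from all others for CTGF, while for CYR61 they lay among the other myogenic clusters.

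Both targets were highest in cluster 7. CTGF there was 11.8 in replicate 1 and 14 in replicate 2, and CYR61 was 12.4 and 13.3, more than in any library of any other cluster. Cluster 7 was also highest in the summed levels of other lists described below. Hippo kinases and adaptors were at 11.7 there, other YAP and TAZ targets at 41 and immediate early genes at 20.4. The next highest clusters were at 9.54, 21.2 and 14.6. CCDC80 alone made 25.1 of the 41 in cluster 7 and 13.2 of the 21.2 in cluster 8. Other TEAD partners were highest in cluster 13, at 1.5 against 1.12 in cluster 7. Ribosomal protein genes took 9.02% of the UMIs of cluster 7 against 22.3% to 30.9% in the other clusters. With these genes left out of the total, a choice made after the data were seen, CTGF was 14.2 in cluster 7 against 7.92 in the next, cluster 13, and CYR61 was 14.1 against 8.13. The summed levels of the other lists were not recomputed in this way. Hippo kinases and adaptors were at 11.7 in cluster 7 and 9.54 in cluster 13, whose ribosomal shares were 9.02% and 30.9%. Scaled by these shares, cluster 7 would no longer be highest for that list. It would stay highest for the other YAP and TAZ targets and the immediate early genes. In the cells of cluster 7 with at least 2000 UMIs, the levels were 14.1 for CTGF and 13.8 for CYR61. The part of low depth in these values was otherwise not tested.

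ANKRD1 encodes a muscle ankyrin repeat protein that binds titin and responds to stretch, and it varied most among the well-counted members. It had 172256 UMIs in 82.9% of the cells. Its level was 0.958 in replicate 1 and 0.866 in replicate 2 of cluster 9, and 14.7 and 14.5 in cluster 12, a range of 16-fold among the deeper clusters. Clusters 1 and 3, at 10.2 ± 0.0817 and 10.6 ± 0.174, came next below cluster 12, and clusters 11, 2 and 4 were at 2.72, 3.53 and 3.80 (n = 2). Libraries overlapped in 3 of the 14 neighbour pairs of the order, against 5 for CYR61, 6 for CTGF and 6 for AMOTL2, which had fewer UMIs. The number of such overlaps over all genes is not given, here or for the other members. Cluster 7 had 17.5 and 15, but with ribosomal protein genes left out of the total its mean of 17.9 was below the 19.3 of cluster 12.

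AMOTL2, an angiomotin family scaffold that holds YAP at cell junctions and is itself a YAP target, was at 0.994 and 0.981 in cluster 12 and at 1.05 and 1.19 in cluster 10. All other deeper clusters lay between 0.493 ± 0.0204 in cluster 2 and 0.756 ± 0.0233 in cluster 3 (SD, n = 2), below both. The shallow clusters 7 and 13 had 1.69 ± 0.271 and 1.32 ± 0.0279. Their order turned when ribosomal protein genes were left out of the total, with 1.86 in cluster 7 and 1.92 in cluster 13.

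LATS2, the kinase that phosphorylates YAP and TAZ and is itself a target in feedback, was near the limit of the counts, with 182 UMIs in 178 cells (0.932%). Its mean level in the deeper clusters lay between 0.00321 and 0.0120. In clusters 13 and 15 it had 0 UMIs, which allows a level of up to 0.0302 and 0.137, above its level in every other cluster, so no absence can be read from it. Its paralog LATS1, counted on its own, had a level of 0.105 in cluster 12 and 0.167 in cluster 3.

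Because depth differed between clusters, each cell was also thinned to 2000 UMIs, with the shallower cells left out. A CTGF UMI was then seen in 28.2% of the cells in cluster 2 (95% exact binomial interval 26.3% to 30.1%) and in 33.0% in cluster 4 (30.8% to 35.3%), against 47.6% in cluster 5 (45.2% to 50.0%). For ANKRD1 the share was 83.6% in cluster 12 (80.4% to 86.4%), 77.0% in cluster 3 and 10.5% in cluster 9 (8.70% to 12.4%). The intervals do not overlap between clusters 4 and 5 for CTGF, nor between clusters 9 and 12 for ANKRD1. These intervals cover counting error only. Before thinning the shares were 80.4%, 86.4% and 92.4% for CTGF in clusters 2, 4 and 5, and 99.5%, 98.2% and 55.6% for ANKRD1 in clusters 12, 3 and 9. No cluster is known to lack CTGF, so the part of free RNA in its shares was not tested.

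**Figure D3:**
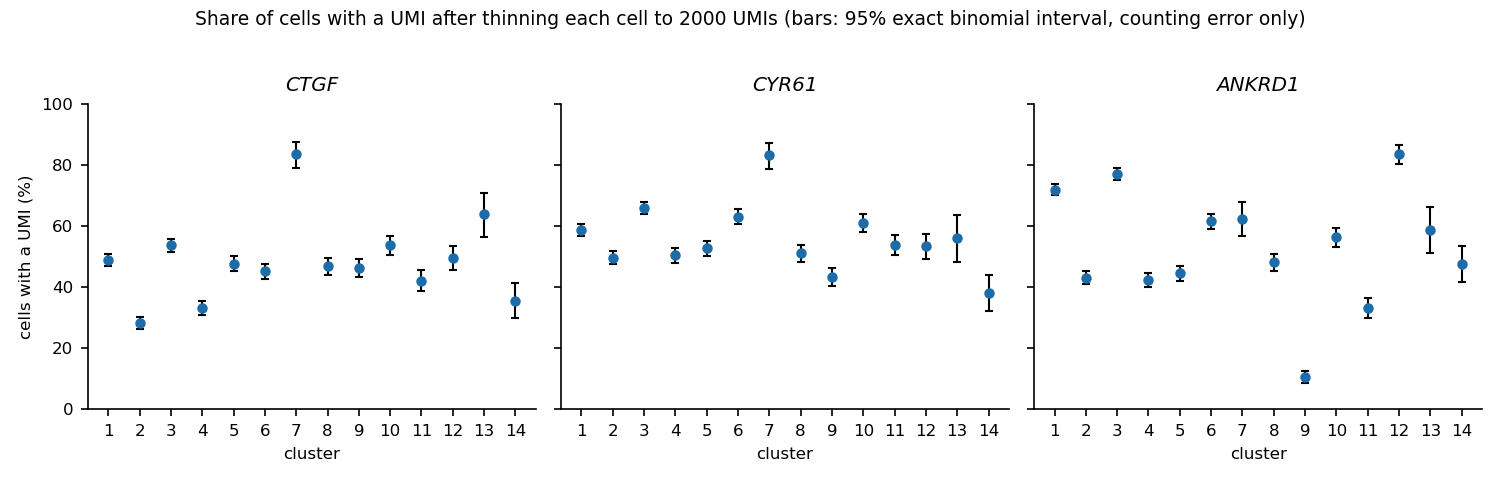
Share of cells with at least 1 UMI of CTGF, CYR61 or ANKRD1 (vertical axis, percent) by cluster (horizontal axis) after each cell was thinned to 2000 UMIs. Bars are 95% exact binomial intervals, cluster 15 has no cell that deep, and the 308 cells left in cluster 7 have shares of 83.4%, 83.1% and 62.3%. CTGF dips in clusters 2 and 4, where CYR61 is at 49.6% and 50.3%, and ANKRD1 is at 10.5% in cluster 9.

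Within a cluster, the targets varied together only weakly from cell to cell in these thinned counts. At 2000 UMIs per cell, Pearson's r of log2(UMIs + 1) between CTGF and CYR61 had a median of 0.14 over the 13 clusters with at least 100 such cells in each library, and ran from 0.10 to 0.32. The medians were 0.12 between CTGF and ANKRD1 and 0.12 between CYR61 and ANKRD1. Of the 36 pairs of members, no pair with YAP1, WWTR1, TEAD1 or TEAD4 had a median r above 0.03. These values are descriptions over cells of the same libraries, and in counts this sparse an r near 0 is not evidence that a pair is unrelated. All of CTGF, CYR61 and ANKRD1 had a UMI in 29.8% of the thinned cells of cluster 3 and in 3.43% of those of cluster 9.

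The first trajectory drawn by the authors runs from cluster 8 to clusters 1, 3 and 12, by their names from PAX3-positive satellite cells to myoblasts and myocytes. For each library the UMIs of a cluster were summed, the sums were compared by the quasi-likelihood test of edgeR, and a gene was called at a Benjamini-Hochberg adjusted p under 0.05 over all genes tested. The clusters were made from the same counts, so the calls are not independent of the clustering. Between clusters 1 and 8, 2 of the 9 members were called, where 34.1% of all 11194 genes tested were called. ANKRD1 rose from 5.24 and 5.92 in replicates 1 and 2 of cluster 8 to 10.3 and 10.1 in cluster 1, a log2 difference of 0.90 ± 0.062 (SE, edgeR adjusted p = 2.12e-05). CYR61 rose from 4.01 and 3.93 to 4.85 and 4.77 (log2 0.31 ± 0.0461, edgeR adjusted p = 0.00133), while CTGF had a log2 difference of -0.00 ± 0.0619. For both called genes the libraries of the clusters did not overlap. Here and below, such a lack of overlap describes genes already called and is no further test. The share of all genes without overlap is not given.

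From cluster 1 to cluster 3, AMOTL2 and CYR61 rose, 2 of 9 members against 40.2% of all genes. AMOTL2 went from 0.662 and 0.628 to 0.740 and 0.773 (log2 0.26 ± 0.0539, edgeR adjusted p = 0.00721). CYR61 went from 4.85 and 4.77 to 5.52 and 5.87 (log2 0.28 ± 0.043, edgeR adjusted p = 0.00216). The clusters did not overlap for either gene, and both increases were about 1.2-fold. ANKRD1 had a log2 difference of 0.09 ± 0.0393 (edgeR adjusted p = 0.109).

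From cluster 3 to cluster 12, the step between the earlier and the more differentiated myocytes, 4 of 9 members were called, 3 of them higher, where 33.8% of all genes were called. WWTR1 rose from 0.30 and 0.304 in cluster 3 to 0.480 and 0.612 in cluster 12, a log2 difference of 0.95 ± 0.105 (edgeR adjusted p = 0.00036). ANKRD1 (log2 0.56 ± 0.0473, edgeR adjusted p = 8.96e-05) and AMOTL2 (0.48 ± 0.061, edgeR adjusted p = 0.000709) also rose. CYR61 fell by 0.32 on the log2 scale (SE 0.0542, edgeR adjusted p = 0.00278), from 5.52 and 5.87 to 4.31 and 4.19. The targets thus did not move in 1 direction, and for these 4 genes the libraries of the clusters did not overlap. Without TMM scaling the median of all genes moved from -0.02 to -0.12 and the share of calls that were higher from 53.8% to 38.0%, while these directions held, and CTGF was then called at -0.22 (edgeR adjusted p = 0.00525).

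TEAD4 had log2 differences of 0.96 ± 0.462, 0.73 ± 0.421 and 1.10 ± 0.415 at the steps from 8 to 1, 1 to 3 and 3 to 12, and was not called (edgeR adjusted p = 0.15, 0.216 and 0.0765), although without the filter on low counts it was called at the last of these steps (log2 1.08, edgeR adjusted p = 0.0237). Each library contributed a sum to either arm, which pairs the sums by library. With the library as a block, TEAD4 was called at each step, at 0.94 ± 0.287, 0.74 ± 0.181 and 1.08 ± 0.184 (edgeR adjusted p = 0.00544, 0.000144 and 2.88e-08). The estimates hardly moved and their errors shrank, and in each library alone TEAD4 was higher in the later cluster of each step. The block also called TEAD1 (0.27), CTGF (0.12) and ANKRD1 (0.09) from cluster 1 to 3, and CTGF at -0.13 from cluster 3 to 12 (edgeR adjusted p = 0.00423, 1.95e-06, 0.000104 and 0.000704). It raised calls among all genes as well. With the block 3, 6 and 6 of the 9 members were called at the 3 steps, against 46.2%, 55.2% and 46% of all genes. Under the block a gene has 1 residual degree of freedom, so these p-values rest almost wholly on the spread shared across genes and hardly on that of the gene itself. The fits without the block also lean on that shared spread, with 2 residual beside 5.17 to 6.08 prior degrees of freedom at these steps. They also leave the pairing by library out.

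**Figure D4:**
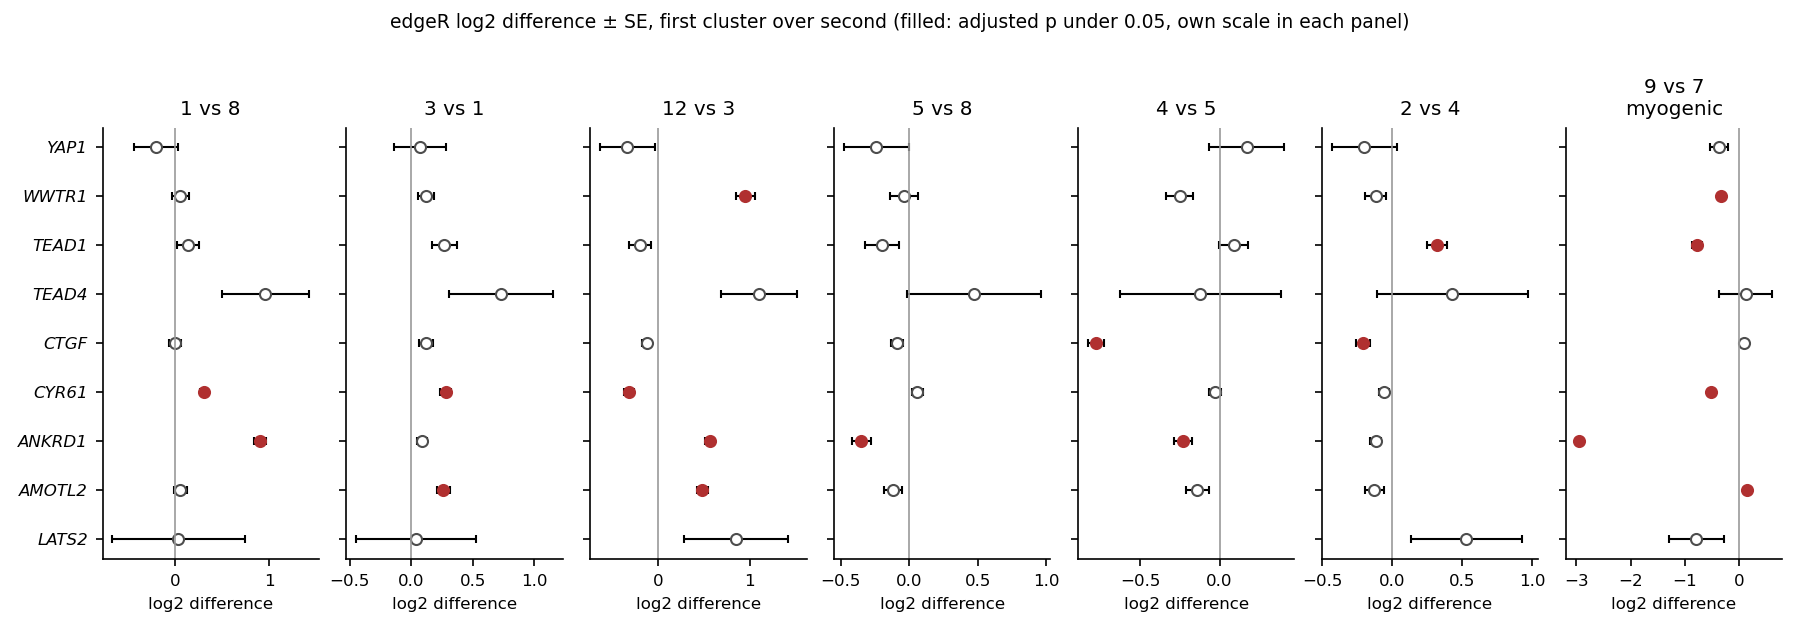
Log2 difference of each of the 9 genes (rows) in the 7 comparisons (panels, first cluster over second, horizontal axis with its own scale in each panel), with bars of ±1 SE and filled points at an edgeR adjusted p under 0.05. WWTR1, ANKRD1 and AMOTL2 are filled and above 0 in 12 against 3, CTGF is filled at -0.78 in 4 against 5, and ANKRD1 lies at -2.95 in cluster 9. LATS2 was not tested in 5 against 8 and in 4 against 5.

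Myocyte markers moved with these steps. All 3 (MYOG, MYH3 and MYMK) rose at each step of the first trajectory, with median log2 differences of 3.06, 2.29 and 3.30, while FAP markers fell for 3, 2 and 1 of 3. Pericyte and smooth muscle markers fell for 2 of 3 at the first step and 2 of 3 at the second, and 1 rose and 1 fell of 4 at the third. The part of these shifts in the members' differences was not tested.

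The second trajectory runs from cluster 8 to clusters 5, 4 and 2, by the authors' names from PAX3-positive to PAX7-positive cells and MYOD1-positive myoblasts. Between clusters 5 and 8, 1 of the 8 members tested was called, where 28.5% of all genes were called. ANKRD1 fell by 0.35 on the log2 scale (SE 0.0697, edgeR adjusted p = 0.00797), from 5.24 and 5.92 in cluster 8 to 4.13 and 4.62 in cluster 5. The libraries of the clusters did not overlap. With the library as a block CTGF was also called, at -0.09 (edgeR adjusted p = 0.0257), which made 2 of 8 members against 42.7% of all genes. Beside this, 1 of 3 FAP markers and 2 of 3 pericyte and smooth muscle markers fell. The summed level of the FAP markers was 15.8 and 14.8 in cluster 8 and 10.4 and 9.90 in cluster 5. In the FAPs of cluster 9 it was 11.4 and 10.8, below that of cluster 8. The summed level of the pericyte and smooth muscle markers was 9.95 and 9.58 in cluster 8 and 7.65 and 7.63 in cluster 5. The part of these markers in the members' differences was not tested.

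Between clusters 4 and 5, where 16.4% of all genes were called, the largest change among the members was that of CTGF. CTGF fell by 0.78 on the log2 scale (SE 0.0501, edgeR adjusted p = 6.67e-05), from 4.07 and 3.90 in cluster 5 to 2.28 and 2.45 in cluster 4. It ranked 167 of 11311 genes from the lowest log2 difference. CYR61, by contrast, had a log2 difference of -0.03 ± 0.0394, with 4.14 and 4.13 in cluster 5 and 4.11 and 4.14 in cluster 4. ANKRD1 fell by 0.23 (SE 0.0571, edgeR adjusted p = 0.0376), so 2 of 8 members were called. Its call was lost without TMM scaling, without the filter on low counts and without the cells called doublets, at adjusted p = 0.052, 0.0872 and 0.0511 by edgeR. With the library as a block, WWTR1 (-0.25) and AMOTL2 (-0.14) were called too (edgeR adjusted p = 0.0101 and 0.0472), which made 4 of 8 members against 35.2% of all genes.

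Between clusters 2 and 4, 2 of 9 members were called against 30.2% of all genes. CTGF fell again, from 2.28 and 2.45 in cluster 4 to 2.12 and 2.01 in cluster 2 (log2 -0.21 ± 0.0492, edgeR adjusted p = 0.0205), but not without the filter on low counts (edgeR adjusted p = 0.0751). TEAD1 rose from 0.138 and 0.139 to 0.174 and 0.175 (log2 0.32 ± 0.0744, edgeR adjusted p = 0.019), and this call was lost with DESeq2 (adjusted p = 0.204). Neither gene's libraries overlapped between the clusters. Beside this, all 3 myocyte markers rose and all 3 FAP markers fell between clusters 2 and 4. None of either list was called between clusters 4 and 5, where CTGF fell most. There the summed level of the pericyte and smooth muscle markers was 7.65 and 7.63 in cluster 5 and 8.97 and 8.99 in cluster 4. The part of these markers in the members' differences was not tested. Between clusters 2 and 4 the block added ANKRD1 (-0.12) and AMOTL2 (-0.13), at edgeR adjusted p = 0.00425 and 0.0414, which made 4 of 9 members against 47.1% of all genes.

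The FAPs of cluster 9 were compared with the 7 myogenic clusters of both trajectories summed, and 5 of 9 members were called, where 56.5% of all 12941 genes were called. ANKRD1 was 0.958 in replicate 1 and 0.866 in replicate 2 of cluster 9, against 6.90 and 7.01 in the myogenic cells. It was 7.74-fold lower in cluster 9, a log2 difference of -2.95 ± 0.0629 (edgeR adjusted p = 6.83e-06), and ranked 278 of 12941 genes from the lowest. A median cell held 1 ANKRD1 UMI in cluster 9 and 7 in the myogenic clusters, and 44.4% against 9.37% of the cells had none.

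In the same comparison all 3 FAP markers rose. All 3 myoblast, all 3 myocyte and both satellite cell markers fell, as did 3 of 4 pericyte and smooth muscle markers. The 1 endothelial marker tested rose by 4.37 on the log2 scale, but from few counts. PECAM1 and CDH5 together were at only 0.0155 and 0.0131 in replicates 1 and 2 of cluster 9. The summed level of the FAP markers in cluster 9, 11.4 and 10.8, was still below the 15.8 and 14.8 of cluster 8 in the myogenic arm. Over all cells, most UMIs of that sum were of DCN. Much of the ANKRD1 mRNA in cluster 9 lay in cells called doublets, which were also higher in myogenic markers. The 160 cells of cluster 9 called doublets held 21.5% of its UMIs but 58.1% of its ANKRD1 UMIs and 72.6% of its MYOD1 UMIs. ANKRD1 was at 2.47 in these cells and at 0.489 in the other 920 cells. MYOD1 was at 1.96 and 0.202, MYOG at 0.871 and 0.0995, and DES, which differed less, at 1.97 and 0.603. With doublets left out of both arms the log2 difference was -3.88 ± 0.0470 (edgeR adjusted p = 5.96e-07), and 6.63% of the remaining cells had an ANKRD1 UMI at 2000 UMIs per cell (95% exact binomial interval 5.11% to 8.44%). The contrast was thus larger without these cells, whose median depth was 35241.5 UMIs against 21815.5 in the others. These cells were picked as a set top share of doublet scores, since automatic thresholds called 1 cell in all. The scores were computed from the same counts, so the larger contrast is not independent of that choice. The source of the ANKRD1 mRNA in cluster 9 was not tested.

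The other members differed less. TEAD1 fell from 0.159 and 0.157 in the myogenic clusters to 0.101 and 0.0870 in cluster 9 (log2 -0.77 ± 0.0903, edgeR adjusted p = 0.00117). CYR61 (log2 -0.52 ± 0.0446, edgeR adjusted p = 0.00037) and WWTR1 (-0.34 ± 0.0579, edgeR adjusted p = 0.00451) also fell. Libraries of cluster 9 and of the summed arm did not overlap for any of them. For WWTR1, though, cluster 9 at 0.218 and 0.228 overlapped with cluster 2 at 0.207 and 0.224, and with cluster 4 at 0.234 and 0.228. AMOTL2 rose by 0.14 ± 0.0446 (edgeR adjusted p = 0.0444), a call that was lost with DESeq2, without the filter, without doublets and with cells assigned by profile (adjusted p = 0.055 to 0.134). CTGF was at 3.65 and 3.79 in cluster 9 against 3.50 and 3.36 in the myogenic cells (log2 0.09 ± 0.0403, edgeR adjusted p = 0.098), and was called with the library as a block (adjusted p = 0.00561) and without TMM scaling (edgeR adjusted p = 0.0499). Among the single myogenic clusters, mean CTGF was below the 3.72 of cluster 9 only in clusters 2 and 4, at 2.07 and 2.36. In the others it ran from 3.78 in cluster 12, which overlapped with cluster 9, to 4.41 in cluster 3. The direction of this difference thus depended on which clusters were summed. With the block 6 of 9 members and 65.9% of all genes were called.

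A list of 21 other Hippo kinases and adaptors was counted in the same fits. Between clusters 1 and 8, 2 genes rose and 6 fell among 21 tested, where 17.2% of all genes rose and 16.9% fell, with a median log2 difference of -0.16 against -0.00 over all genes. DCHS1, an atypical cadherin upstream of the kinases, fell by 0.94 on the log2 scale, and RASSF1, which binds the MST kinases, fell by 1.35 (edgeR adjusted p = 0.000436 and 0.000226). From cluster 1 to cluster 3, 3 of 20 rose and 6 fell, beside 21.1% and 19.1% of all genes, and FAT4, the receptor for DCHS1, fell by 0.98 while MOB1B, a coactivator of the LATS kinases, rose by 0.74 (edgeR adjusted p = 0.00115 and 0.000298). From cluster 3 to cluster 12, 2 of 21 rose and 7 fell, beside 18.2% and 15.6% of all genes, with a median of -0.24 against -0.02 over all genes, including MOB1A at -0.69 and AMOTL1 at -0.76 (edgeR adjusted p = 0.00906 and 0.0475).

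On the second trajectory 0 of the 21 rose and 5 fell between clusters 5 and 8 by edgeR, 2 rose and 1 fell between clusters 4 and 5, and 1 rose and 4 fell between clusters 2 and 4. Of all genes 16.3% rose and 12.2% fell in the first of these comparisons, 9.16% and 7.28% in the second, and 14.5% and 15.7% in the third. DCHS1 was lower in cluster 5 than in cluster 8 by a log2 difference of -0.84, and FAT4 in cluster 2 than in cluster 4 by -1.24 (edgeR adjusted p = 0.00129 and 0.000565). In cluster 9, 4 rose and 8 fell against the myogenic clusters, where 28.9% of all genes rose and 27.6% fell, so the share called was near that of all genes. There FRMD6, a scaffold at the membrane, was at -1.23 (edgeR adjusted p = 5.57e-05). Of the core kinase genes, named after their values were seen, STK3 and LATS1 were called from cluster 1 to 3, at -0.22 and -0.37, LATS1 also from cluster 3 to 12, at -0.57, and STK4 in cluster 9, at 0.33 (edgeR adjusted p = 0.0149, 0.00776, 0.0336 and 0.00858).

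Among the 6 other TEAD partners, of which 5 were tested in each comparison, TEAD2 was called higher at every step but that from cluster 5 to 4. It rose by 0.59, 0.75 and 0.28 on the log2 scale at the 3 steps of the first trajectory (edgeR adjusted p = 0.000337, 7.77e-05 and 0.0151). Between clusters 5 and 8 and between clusters 2 and 4 it rose by 0.58 and 0.65 (edgeR adjusted p = 0.000608 and 0.000192). In these comparisons, in the same order, 34.1%, 40.2%, 33.8%, 28.5% and 30.2% of all genes were called. The level of TEAD2 was 0.358 in cluster 8 and 0.980 in cluster 12. VGLL3, a cofactor that competes with YAP for TEAD, rose by 0.80 and 0.36 from cluster 8 to 1 and 1 to 3 (edgeR adjusted p = 0.000486 and 0.00448). VGLL4, a repressor of TEAD, fell by 0.32 and 0.88 at these steps (edgeR adjusted p = 0.0369 and 0.00132). In the step to cluster 12, TEAD3 and VGLL2, a cofactor of the muscle program, rose by 1.12 and 1.09 (edgeR adjusted p = 0.0075 and 0.00777). In cluster 9, 3 of the 5 fell and none rose by edgeR, a share called near the 56.5% of all genes, with a median log2 difference of -1.12 against -0.01 over all genes, and VGLL2, TEAD3 and VGLL3 were at -1.85, -1.52 and -1.12.

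Of the 17 other YAP and TAZ targets, 16 were in the feature list. Along the first trajectory 1 rose and 6 fell of 14 tested, then 2 and 5 of 13, and then 4 and 5 of 12, beside 34.1%, 40.2% and 33.8% of all genes called in either direction. IGFBP3, an IGF-binding protein, rose by 1.56 from cluster 8 to 1 and fell by 2.52 from cluster 3 to 12 (edgeR adjusted p = 1.06e-06 and 4.65e-07). On the second trajectory 2 rose and 5 fell of 13, 1 rose and 3 fell of 14, and 1 rose and 9 fell of 14, beside 28.5%, 16.4% and 30.2% of all genes called. The last step, from cluster 4 to 2, had a median of -0.40 against -0.01 over all genes, with GADD45A, a growth arrest gene, at -0.77 (edgeR adjusted p = 3.82e-05). In cluster 9, 6 rose and 5 fell of 16, beside 56.5% of all genes called, from F3, the coagulation factor receptor, at 4.01 to TGFB2, a TGF-beta ligand, at -2.11 (edgeR adjusted p = 8.65e-06 and 2.96e-05).

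Immediate early genes, several of which share serum-responsive control with CTGF and CYR61, were counted beside the targets. In the step from cluster 8 to 1, 7 of 12 rose and 2 fell, where 17.2% of all genes rose and 16.9% fell, with EGR1 at 0.87 and FOS at 0.91 (edgeR adjusted p = 6.1e-05 and 0.000304). From cluster 1 to 3, 6 rose and 4 fell of 12, and from cluster 3 to 12, 3 rose and 6 fell of 13, beside 40.2% and 33.8% of all genes called. Between clusters 4 and 5, where CTGF fell, 1 rose and 2 fell of 12, beside 16.4% of all genes called, and the largest of these changes was 0.39 for FOSL1. Between clusters 5 and 8, 5 rose and 1 fell of 12, and between clusters 2 and 4, 2 rose and 4 fell of 13, beside 28.5% and 30.2% of all genes called. In cluster 9, 3 rose and 5 fell of 14, beside 56.5% of all genes called, with FOS at -2.27 and EGR1 at -1.82 (edgeR adjusted p = 1.43e-05 and 1.42e-05). Their part in the differences of CTGF and CYR61 was not tested.

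For each member, the genes with the most similar pattern over the 15 clusters were sought among 9067 genes with at least 1000 UMIs, by Pearson's r of log2(UMIs per 10000 + 0.01). ANKRD1 was most like ASB5 (0.95), TIMP2 (0.94) and KIF1A (0.94). CTGF was most like BCL2L2 (0.93), PPP1R15A (0.92) and EPHA2 (0.91), and CYR61 most like BPTF (0.95), USP34 (0.94) and ATAD2B (0.93). AMOTL2 was most like WWC3 (0.97), itself in the list of Hippo adaptors, followed by RPS6KC1 (0.96) and TSC1 (0.95). TEAD1 was most like KMT2C (0.97), and WWTR1 (0.84) and TEAD4 (0.86) had PLEKHO1 among their closest genes together with STX2 (0.83 and 0.92). YAP1 was most like CSNK1G3 (0.94) and LATS2 like RNF141 (0.85), both from few UMIs of the member. The 15 points share libraries and differ in depth and ribosomal share, so these values only describe the order of clusters.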

How the data were processed

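Cell Ranger 3.0.2 was run by the authors against the ARS-UCD1.2 genome, and reads were subsampled to equal mapped reads per cell in both libraries, which left medians of 14626 and 15206 UMIs per cell. The deposited values are UMI counts, not normalized further, for 21867 genes in 19096 cells. The authors also deposited an average UMI count scaled by size factors, a log2 fold change and an adjusted p-value per gene and cluster, which compare a cluster with all other cells. The fold changes and p-values were not used. The averages, converted back to whole UMI sums, fixed the cluster of all 19096 cells, and the sums differed for 0 of 252240 pairs of gene and cluster after rounding (largest distance from a whole number 0.000107). The library of a cell was read from its barcode suffix. Members and lists were chosen with earlier results of these data known. Named genes are the 9 members, the 3 largest called changes of each other list and comparison (STK3, STK4, LATS1 and CCDC80 were named after their values were seen), the 3 most similar genes per member and the markers.

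UMIs were summed per library and cluster and tested as 2 sums against 2 with edgeR 4.0.16 (R 4.3.3; filterByExpr, TMM, quasi-likelihood, Benjamini-Hochberg) without a block. The fits with and without the block were tested on simulated data with no difference between libraries, so this did not test the block where libraries differ. A gene had 2 residual degrees of freedom without the block and 1 with it. Library log ratios of the 2 arms correlated at 0.40 to 0.62 over genes. Standard errors are the log2 difference over the root of F. Cells were thinned to 2000 UMIs. Doublets were kept. Scrublet's automatic thresholds called 1 cell in all, so the cells with the top 8.0% of scores per library, 1529 cells, were taken as doublets, a choice made after this was seen. Alternatives were DESeq2 1.42.0, no TMM, no filter, the library as a block, doublets left out, cells under 2000 UMIs left out (1898 cells), cells assigned by profile over genes outside the Hippo lists (which kept 85.3% in their cluster), either library alone and, for single cells, 5000 UMIs. Sequences and coordinates of these genes were not used here.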

Additional observations from a re-analysis of the deposited data

How the results depend on the processing

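The members' differences had 425 values under other settings with a test. Of these, 398 kept their side of the threshold, 18 gained a call and 9 lost one. None changed direction where the main or the other fit called the gene. Direction was not checked where neither fit called it. The compared clusters held no cell under 2000 UMIs, so leaving such cells out repeated the main fits, and these repeats are among the 398. Under DESeq2 fewer genes were called in all: 2408 for cluster 1 against cluster 8, 2865 for cluster 3 against cluster 1, 2268 for cluster 12 against cluster 3, 1704 for cluster 5 against cluster 8, 1019 for cluster 4 against cluster 5 and 2150 for cluster 2 against cluster 4. With the library as a replicate block, 3979 genes were called for cluster 4 against cluster 5 and 5448 for cluster 2 against cluster 4. The member calls that the block changed stand in the report, and it changed no other member call. Under the block the number of members called became 3 (1 against 8), 6 (3 against 1), 6 (12 against 3), 2 (5 against 8), 4 (4 against 5), 4 (2 against 4) and 6 (cluster 9), while 35.2% to 65.9% of all genes were called. Between clusters 4 and 5 it was 1 without TMM, without the filter or without doublets, and between 2 and 4 it was 1 with DESeq2 or without the filter. The cause of these changes was not tested. At 5000 UMIs per cell the share of cells of cluster 9 with an ANKRD1 UMI was 23.9% in place of 10.5%, since more UMIs were drawn from each cell. The median r of CTGF and CYR61 was then 0.22 (at 2000 UMIs, 0.13 without doublets and 0.14 with all cells). Cluster 7 was highest for 6 members, for 5 without cells under 2000 UMIs or in replicate 2 alone and for 4 without ribosomal protein genes in the total. The share of all genes highest in cluster 7 is not given. A library alone gives log2 differences and no calls. Depth limits YAP1, TEAD4 and LATS2, which had 913, 1004 and 182 UMIs, and with 2 libraries of 1 calf no statement about animals can be made.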
